A study of Homo sapiens with 6 samples.

Results

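The genes described here are 10 imprinted or imprint-domain genes of chromosome band 11p15: H19, MIR675, IGF2, IGF2AS, CDKN1C, KCNQ1, KCNQ1OT1, PHLDA2, SLC22A18 and NAP1L4. They were picked by symbol from the 23228 gene rows of the tables, with their counts in control and PELP1-KD libraries already known. Their differences between these groups are therefore described, without a test. Reads were found for all 10, and 9 had enough to be tested, the exception being KCNQ1.

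RNA-seq was performed on Hep3B, a human hepatocellular carcinoma cell line, in 3 control and 3 PELP1-KD libraries. Both groups were grown in RPMI medium and had been transduced with lentivirus, the controls with a non-targeting shRNA (SHC016) and the others with shRNA against PELP1, a nuclear receptor coregulator. The treatment protocol lists 2 PELP1 shRNAs, the treatment label gives only the knockdown, and the titles of the PELP1-KD samples name shRNA 1. Stable puromycin-selected clones were pooled, and no label states whether the 3 libraries of a group came from separate cultures, so the replicate error may be technical. The question addressed was how the transcriptome of these cells differs after PELP1 knockdown.

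Libraries held 26758363 to 34456542 reads assigned to genes, and replicates differed with a biological coefficient of variation of 4.04%. PELP1 itself had 5338, 5127 and 5348 reads in control and 4318, 4135 and 4846 in those that carry the PELP1-KD label, that is 4970 ± 115 and 4695 ± 238 normalized reads (mean ± SD, n = 3; reads scaled to a common library size). Its log2 fold change was -0.08 (SE 0.04, adjusted p = 0.101 by edgeR, and 0.0106 with the replicate number as a block), so the label was not checked by a large difference in PELP1 RNA. All control values of PELP1 lay above all PELP1-KD values, which held for 29.3% of all tested genes. For protein, which was not measured here, the paper reports lower PELP1 on Western blots of its Hep3B knockdown cells. The 10 hepatocyte markers examined all had reads. Their summed normalized reads ran from 900313 to 913270 in control and from 772297 to 787741 in PELP1-KD. These markers did not move together, since ALB fell and AFP rose (log2 fold changes -0.61 and 0.62, adjusted p = 6.35e-14 and 5.85e-13 by edgeR). Bile duct markers, led by KRT19, summed to between 21255 and 22144 in control and between 32606 and 34520 in PELP1-KD. Leukocyte markers summed to between 1460 and 1640 against between 1945 and 2091, most of it CD68 (means of 1381 and 1927), while PTPRC and CD3E had at most 5 reads in a library. Endothelial markers, of which CDH5 had no read, summed to between 63.0 and 72.8 against between 60.7 and 67.6. Stellate or fibroblast markers summed to between 139 and 160 against between 32.7 and 45.0. Only 1 of these 5 markers had a mean of at least 10 normalized reads, so the sum mainly follows 1 gene. DCN had at most 4 reads in a library and LRAT at most 2. The part of these shifts in the values of the 11p15 genes was not tested. In bulk RNA, fewer cells with a transcript and less of it per cell cannot be told apart.

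Imprinted genes are transcribed mainly from the maternal or mainly from the paternal copy. At 11p15 they form neighbouring domains, each governed by its own imprinting control region. In the IGF2/H19 domain the control region binds the insulator protein CTCF on the maternal copy, where H19 is transcribed, and is methylated on the paternal copy, where IGF2 is transcribed. In the KCNQ1 domain the long non-coding RNA KCNQ1OT1 is transcribed from the paternal copy and silences CDKN1C, PHLDA2 and their neighbours in cis. Fetal liver expresses IGF2 and H19 strongly, adult liver expresses much less H19, and hepatocellular carcinomas often re-express fetal genes. The reads were not split by parental copy, and DNA methylation was not measured.

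MIR675 is a microRNA hairpin cut from H19 RNA and is the only microRNA among the 10 genes. Its sequence is shown because it defines what the MIR675 row counts and what its mature products could pair with. In hg19, the build of the tables, the hairpin occupies 73 bases of chromosome 11 from 2017989 to 2018061 on the minus strand, wholly inside an exon of H19. The RefSeq hairpin (GRCh38.p14, chr11:1996759-1996831, minus strand) had 0 mismatches to the hg19 bases of the row. In the hairpin the mature arms are in capitals, and in the mature sequences the seed, bases 2 to 8, is in capitals.
MIR675 hairpin: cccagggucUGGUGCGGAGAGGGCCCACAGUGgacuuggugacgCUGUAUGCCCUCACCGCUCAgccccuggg
hsa-miR-675-5p: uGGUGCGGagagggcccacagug
hsa-miR-675-3p: cUGUAUGCccucaccgcuca
hsa-miR-4466: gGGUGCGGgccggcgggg
Of 2370 mature human microRNA names in RefSeq, 1 other, hsa-miR-4466, carries the seed of the 5p arm, and 0 others carry the seed of the 3p arm. Reads of this RNA-seq that touch the hairpin come from H19 RNA or its precursor forms and do not measure mature miR-675.

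H19, a long non-coding RNA, was among the most abundant transcripts of control cells and was far lower in PELP1-KD. It lies at chr11:2016406-2019065 of hg19 on the minus strand, with 2308 exon bases. Control libraries 1 to 3 held 107706, 99748 and 106302 reads of H19, and PELP1-KD libraries 1 to 3 held 5825, 4875 and 6513. The groups were far apart, the highest PELP1-KD library being well below the lowest control. Normalized reads were 98580 ± 2904 in control and 6052 ± 416 in PELP1-KD, which was 6.14% of the control level, with a log2 fold change of -4.03 (SE 0.04). Ranked by reads per exon length, H19 stood between 22 and 24 among all genes in the control libraries and between 881 and 1002 in PELP1-KD.

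MIR675 followed its host. Its row held 13716, 12808 and 13607 reads in control and 744, 649 and 845 in PELP1-KD, with no overlap. Normalized reads were 12610 ± 353 and 788 ± 48.8, or 6.25% of control. Reads that touch the hairpin were taken as the MIR675 count plus an equal part counted for H19. They made up 22.7% ± 0.084 of H19 plus MIR675 reads in control and 23.0% ± 0.43 in PELP1-KD. These shares overlapped between the groups, from 22.6% to 22.8% and from 22.7% to 23.5%. A read that touches the hairpin was divided between both rows in the counting, so this share describes where reads fell along H19 RNA. No difference in that position was apparent beyond the spread of the libraries.

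IGF2, the fetal growth factor that signals through the type 1 IGF and insulin receptors, was also lower in PELP1-KD, by less than H19. Its row spans chr11:2150347-2170833 on the minus strand, with 6305 exon bases in 8 blocks. It held 194389, 184429 and 192892 reads in control and 64411, 56246 and 68794 in PELP1-KD. All PELP1-KD values were below all control values, at 37.2% of the control mean of normalized reads (179655 ± 3833 against 66761 ± 1696), with a log2 fold change of -1.43 (SE 0.03). Ranked by RPKM (reads per kilobase of exon, scaled to library size), the IGF2 row stood between 53 and 57 among all genes in control and between 181 and 183 in PELP1-KD.

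The IGF2 row shares 4881 exon bases, 77.4% of its own, with INS-IGF2, a read-through transcript annotated from the insulin gene into IGF2 on the same strand. Reads on shared bases were divided between the rows, which makes them nearly copies of each other, and INS itself had 0 reads. INS-IGF2 held 174084, 164990 and 172519 reads in control and 59056, 51377 and 62673 in PELP1-KD (log2 fold change -1.40, SE 0.03). Summed, both rows gave 340417 ± 7208 normalized reads in control and 127763 ± 3098 in PELP1-KD. The surplus of IGF2 over INS-IGF2, which reflects bases that only one of the rows has, was 5.55% ± 0.035 of the sum in control and 4.51% ± 0.16 in PELP1-KD, without overlap. The surplus was thus a smaller part of the sum in PELP1-KD, and exon-level values were not analysed here.

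IGF2AS, an antisense transcript of the IGF2 gene on the plus strand, was sparse. It held 168, 135 and 139 reads in control and 38, 53 and 55 in PELP1-KD, without overlap, with a log2 fold change of -1.42 (SE 0.16). It shares 333 exon bases with IGF2 and 365 with INS-IGF2 on the opposite strand. Relative to the summed IGF2 and INS-IGF2 reads, IGF2AS stood at 0.0408% ± 0.0042 in control and 0.0406% ± 0.0093 in PELP1-KD, and these ratios overlapped. Reads were counted by strand, and whether a share of the antisense reads came from IGF2 RNA was not tested. MIR483, a microRNA in an intron of IGF2 that was looked up after its values were seen, held 3, 7 and 7 reads in control and 3, 1 and 1 in PELP1-KD, too few to compare.

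Because H19 was lower by a larger factor than IGF2, the balance of the domain differed between the groups. Counting INS-IGF2 with IGF2 and MIR675 with H19, IGF2 had 3.06 ± 0.037 reads per H19 read in control and 18.7 ± 0.81 in PELP1-KD. Per exon base, the ratio was 1.06 ± 0.013 in control, near parity, and 6.46 ± 0.28 in PELP1-KD. The near parity depends on the annotated lengths used, 6683 joint exon bases for IGF2 with INS-IGF2 and 2308 for H19. Either ratio needs no scaling between libraries, and its values did not overlap between the groups. H19 with MIR675 made up 0.352% of all gene reads in control and 0.0219% in PELP1-KD, and IGF2 with INS-IGF2 made up 1.08% and 0.409%. The 10 genes and INS-IGF2 together took 1.45% ± 0.030 of all reads on genes in control and 0.451% ± 0.0089 in PELP1-KD.

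**Figure D1:**
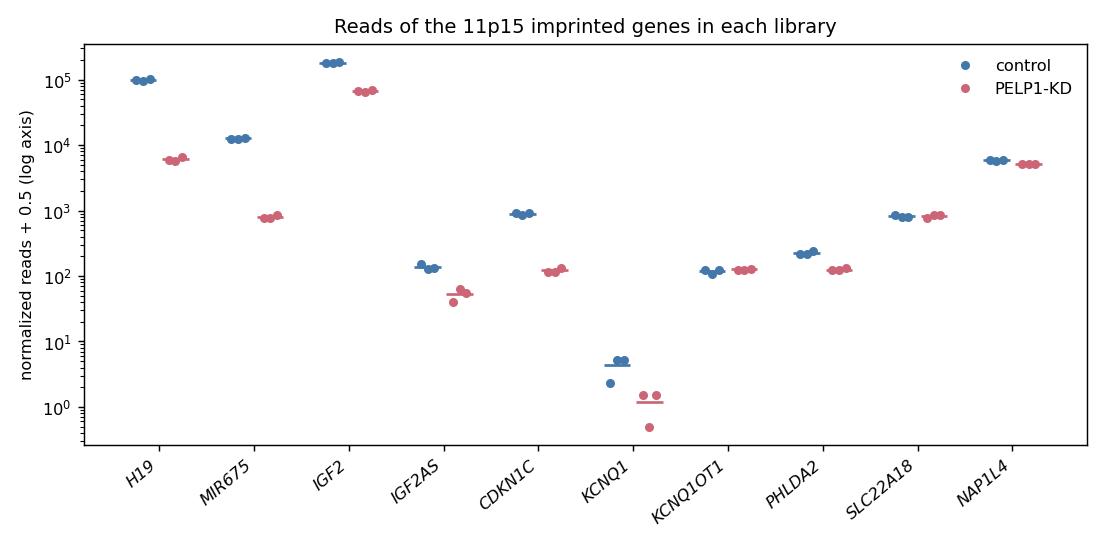
Normalized reads plus 0.5 of the 10 genes on a log axis, with 1 point per library (3 control, blue, and 3 PELP1-KD, red) and a bar at each group mean. H19, MIR675, IGF2, IGF2AS, CDKN1C, PHLDA2 and NAP1L4 have all control points above all PELP1-KD points, KCNQ1OT1 and SLC22A18 overlap, and KCNQ1 rests on 12 control and 2 PELP1-KD reads.

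In the KCNQ1 domain, the protein-coding gene CDKN1C was much lower in PELP1-KD while the non-coding RNA KCNQ1OT1 was not. KCNQ1OT1 is a single unspliced stretch of 59461 bases at chr11:2661768-2721228 on the minus strand, inside the KCNQ1 gene. It held 135, 112 and 131 reads in control and 121, 107 and 129 in PELP1-KD. The groups overlapped at 119 ± 9.8 and 126 ± 2.6 normalized reads (log2 fold change 0.08, SE 0.12). Spread over its length this is 0.0635 and 0.0674 RPKM, a low level in both groups.

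CDKN1C encodes p57, an inhibitor of cyclin-dependent kinases, and lies at chr11:2904448-2906995 on the minus strand with 1930 exon bases. Reads were 995, 905 and 958 in control and 113, 98 and 133 in PELP1-KD. No PELP1-KD library came near the controls, and the mean of normalized reads was 13.5% of control (898 ± 26.3 against 121 ± 10.3), a log2 fold change of -2.89 (SE 0.08). Set against KCNQ1OT1 in the same library, CDKN1C had 7.59 ± 0.43 reads per KCNQ1OT1 read in control and 0.960 ± 0.062 in PELP1-KD, without overlap.

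PHLDA2, a pleckstrin-homology domain protein known as a brake on placental growth, lies at chr11:2949503-2950650 on the minus strand. It held 233, 222 and 249 reads in control and 119, 106 and 130 in PELP1-KD. The groups did not overlap, with 56.5% of the control level left (221 ± 14.1 against 125 ± 4.2 normalized reads) and a log2 fold change of -0.82 (SE 0.10).

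SLC22A18, a membrane transporter gene at chr11:2920951-2946476 on the plus strand, lies between CDKN1C and PHLDA2 and did not follow them. Its reads were 915, 841 and 833 in control and 755, 734 and 851 in PELP1-KD. The normalized values overlapped (813 ± 22.9 and 826 ± 46.5), with a log2 fold change of 0.02 (SE 0.06). It shares 101 exon bases with the antisense gene SLC22A18AS, which held 58, 40 and 42 reads in control and 27, 40 and 31 in PELP1-KD (log2 fold change -0.34, SE 0.24, adjusted p = 0.245).

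NAP1L4, a histone chaperone gene of the nucleosome assembly family at chr11:2965660-3013607 on the minus strand, marks the outer edge of the domain. It held 6373, 5986 and 6158 reads in control and 4936, 4342 and 5161 in PELP1-KD. After scaling the groups were close and did not overlap, 5818 ± 71.6 against 5092 ± 55.0 normalized reads, or 87.5% of control (log2 fold change -0.19, SE 0.04). KCNQ1, a voltage-gated potassium channel at chr11:2466221-2870340 on the plus strand, was nearly silent. It had 2, 5 and 5 reads in control and 1, 0 and 1 in PELP1-KD. Scaled for depth, the ratio of control to PELP1-KD was 5.34, but it rests on 12 and 2 reads in all, too few to compare.

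**Figure D2:**
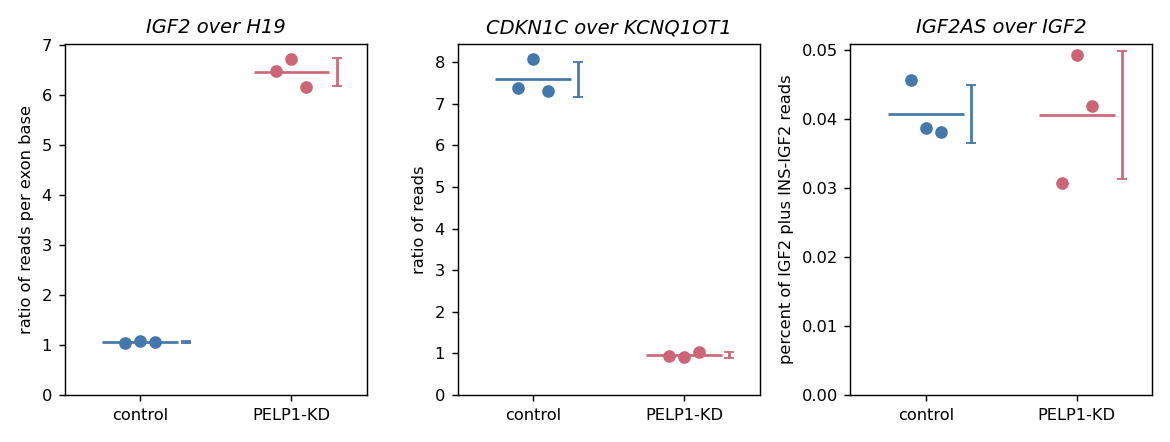
Ratios within each library, with 1 point per library, a bar at the group mean and an error bar of 1 SD (n = 3 per group). IGF2 over H19 per exon base was 1.06 in control and 6.46 in PELP1-KD, CDKN1C over KCNQ1OT1 was 7.59 and 0.960, and IGF2AS as a percent of IGF2 plus INS-IGF2 overlapped at 0.0408 and 0.0406.

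Of the 9 genes tested, 7 were lower in PELP1-KD and 0 higher at an adjusted p under 0.05, where 26.8% of all 14537 tested genes were lower and 26.8% were higher. At a change of at least 2-fold as well, 5 were lower, namely H19, MIR675, IGF2, IGF2AS and CDKN1C, where 4.79% of all tested genes were lower and 2.85% were higher. In 7 of the 9, all control values lay above all PELP1-KD values, which held for 29.3% of all tested genes. The median log2 fold change of the 9 was -1.42, and that of all tested genes was 0.00. Nothing is read from these counts, since the genes were chosen with this contrast known, MIR675 lies inside H19, and IGF2AS shares bases with IGF2.

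**Figure D3:**
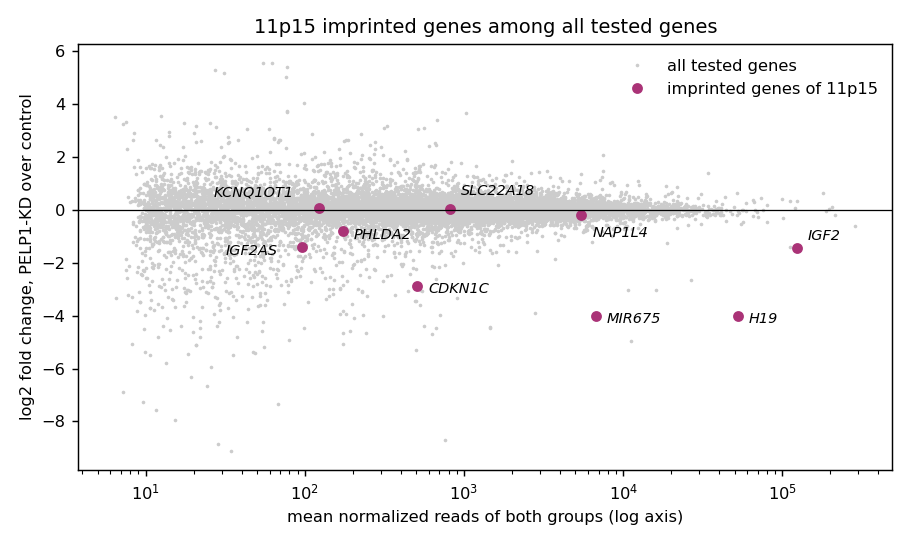
The log2 fold change, PELP1-KD over control, against the mean normalized reads of both groups on a log axis, with grey points for the 14537 tested genes and purple points for the 9 tested genes of 11p15. H19 at -4.03 and IGF2 at -1.43 lie at the abundant end, where most grey points are near 0.

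Levels can be ranked between genes only per length. In control cells, IGF2 with INS-IGF2 stood at 1621 ± 34.3 RPKM over their 6683 joint exon bases and H19 with MIR675 at 1533 ± 44.9. NAP1L4 followed at 73.5 RPKM, SLC22A18 at 15.9, CDKN1C at 14.8, PHLDA2 at 7.65, IGF2AS at 1.55, and KCNQ1OT1 at 0.0635, above KCNQ1. Neighbours in this order did not overlap across the 3 libraries, close as IGF2 and H19 and then SLC22A18 and CDKN1C were. In PELP1-KD, IGF2 with INS-IGF2 stood at 608 ± 14.8 RPKM and H19 with MIR675 at 94.3 ± 6.38, with NAP1L4 next at 64.3 and SLC22A18 at 16.2. CDKN1C, at 1.99 RPKM, then stood below PHLDA2 at 4.33, so these genes had exchanged places.

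The genes around the 10 were then examined. Within 500 kb of the stretch from H19 to NAP1L4, which is 997 kb long, the tables hold 42 other genes, of which 27 had a read and 14 were tested. PELP1-KD was lower in 10 of the 14 and higher in 0, with 4 lower by at least 2-fold, where 26.8% of all tested genes were lower, 26.8% higher and 4.79% lower by at least 2-fold, and the median log2 fold change was -0.34 against 0.00 over all tested genes. INS-IGF2 is among the 10 and shares its reads with IGF2. LOC100133545, a non-coding gene and the nearest to H19 of the tested neighbours, fell from 174 ± 17.3 to 67.2 ± 3.06 normalized reads (log2 fold change -1.37, SE 0.13, adjusted p = 3.68e-08). LOC338651, a non-coding gene near the far end of the window, fell from 32, 29 and 38 reads to 4, 3 and 4 (log2 fold change -2.96, SE 0.37, adjusted p = 1.36e-06).

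The other gene past 2-fold, SYT8, rested on 54 reads in all and lost its call in 7 of 13 alternatives. The remaining called neighbours had smaller differences. DUSP8, a phosphatase of MAP kinases that was singled out after its values were seen, fell by 0.92 on the log2 scale (SE 0.06, adjusted p = 3.64e-11). Between the IGF2 and KCNQ1 domains, the tetraspanin gene CD81 fell by 0.39 on the log2 scale (adjusted p = 1.32e-06), and TSSC4 had a log2 fold change of -0.12 that missed the threshold (adjusted p = 0.103, and 0.0236 with the replicate block). Lower values were present on both sides of H19. SLC22A18 and KCNQ1OT1 were the 2 of all 23 tested genes in the window with a log2 fold change above 0. The median over all tested genes was 0.00. Nothing is read from this count, since 9 of the 23 were chosen with this contrast known and some rows share reads. Among the neighbours, MOB2 (-0.07, SE 0.07) and IFITM10 (-0.09, SE 0.20) lay close to 0 for their error.

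**Figure D4:**
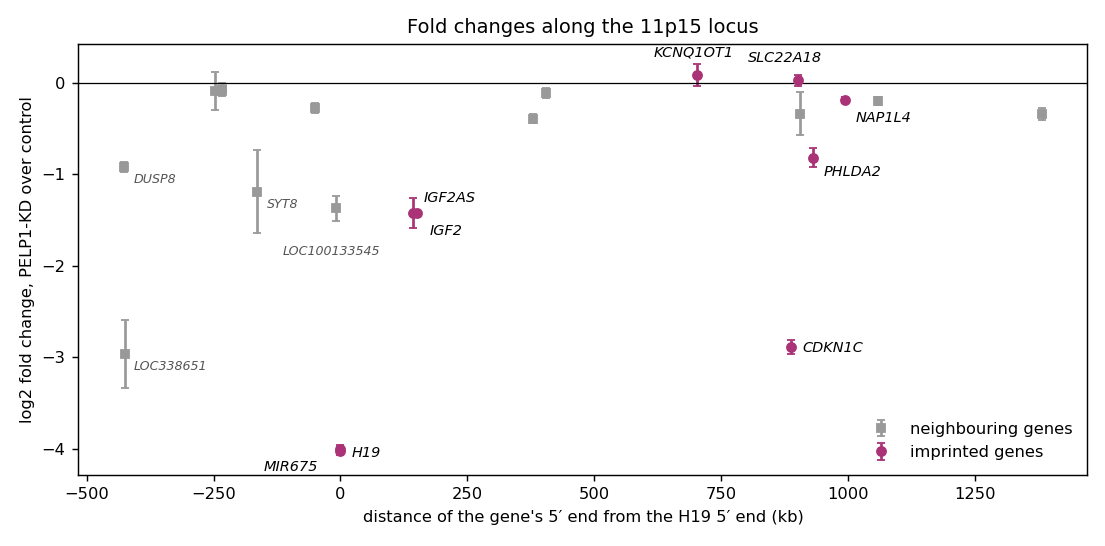
The log2 fold change, PELP1-KD over control, with its SE (bars), against the distance of each gene's 5′ end from that of H19 in kb, with purple circles for the 9 tested imprinted genes and grey squares for tested neighbours within 500 kb (INS-IGF2 left out, since it shares reads with IGF2). H19 and MIR675 at 0 kb and CDKN1C at 888 kb lie lowest of the purple circles, with KCNQ1OT1 and SLC22A18 slightly above 0.

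Genes that act with the 10 were taken from lists. The IGF pathway list holds receptors, binding proteins, proteases and RNA-binding partners of IGF2, and 18 of its 21 genes were tested. Of these, 7 fell, 6 rose and 5 did not pass, with a median log2 fold change of 0.01. Over all tested genes 26.8% fell and 26.8% rose, and the list's counts lie near or somewhat above that. The receptors IGF1R (log2 fold change 0.07, adjusted p = 0.235) and IGF2R (-0.02, adjusted p = 0.600), the latter clearing IGF2 from the cell surface, did not pass the test. The insulin receptor gene INSR rose by 0.50 on the log2 scale (SE 0.04, adjusted p = 5.69e-10).

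The IGF-binding proteins, which hold IGFs in the circulation, went both ways. IGFBP3 and IGFBP4 fell by 0.69 and 0.91 on the log2 scale (adjusted p = 2.47e-08 and 4.24e-10), and IGFBP6 and IGFBP7 rose by 0.99 and 0.37 (adjusted p = 1.17e-07 and 0.00253). The largest falls were of sparse transcripts. IGFBP2 fell from 108, 113 and 86 reads to 7, 7 and 8 (log2 fold change -3.61, SE 0.25, adjusted p = 2.68e-10), and IGFBP1 fell from 74, 62 and 58 to 27, 27 and 28 (log2 fold change -1.07, SE 0.20, adjusted p = 1.81e-04). IGFALS, which stabilizes the circulating IGF complex, had 31, 20 and 13 reads in control and 0, 2 and 2 in PELP1-KD (adjusted p = 3.88e-05). PAPPA2, a protease that cuts IGF-binding proteins, rose from 6, 12 and 15 reads to 25, 31 and 29 (log2 fold change 1.52, SE 0.33, adjusted p = 7.01e-04).

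Imprinted genes at other loci were examined for comparison. Of 27 listed, 19 were tested, of which 11 fell, 2 rose and 6 did not pass, with 7 falling by at least 2-fold and a median log2 fold change of -0.19. Over all tested genes 26.8% fell, 26.8% rose and 4.79% fell by at least 2-fold. DLK1, a membrane protein expressed in fetal liver, held 1626, 1607 and 1569 reads in control and 5, 1 and 4 in PELP1-KD (log2 fold change -8.69, SE 0.14, adjusted p = 1.96e-20). SNRPN, a small nuclear ribonucleoprotein gene whose row counts the same reads as SNURF, fell from 2786 ± 103 to 128 ± 14.95 normalized reads (log2 fold change -4.45, SE 0.07, adjusted p = 1.89e-20). The list includes NAP1L5 and IGF2R, which are also in other lists, and PEG10, an abundant retrotransposon-derived gene, fell by only 0.24 on the log2 scale. The 2 that rose, MKRN3 and BLCAP, stood at 142% and 137% of control (log2 fold changes 0.50 and 0.46, adjusted p = 0.00134 and 2.33e-06).

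Regulators of imprints were then counted. Of 21, 17 were tested, of which 4 fell, 5 rose and 8 did not pass, with a median log2 fold change of 0.00, near the 26.8% of all tested genes that moved each way. DNMT3L, a cofactor of the de novo DNA methyltransferases, was alone past 2-fold and rare, with 18, 11 and 12 reads in control and 27, 19 and 38 in PELP1-KD (log2 fold change 1.19, SE 0.31, adjusted p = 0.0032). CTCF, the insulator protein, had 3196 ± 135 and 2980 ± 81.6 normalized reads, a log2 fold change of -0.10 that missed the threshold (adjusted p = 0.0531, from 0.00513 with the replicate block to 0.264 over the alternatives, 6 of 14 of which called it). DNMT1, the maintenance methyltransferase, fell by 0.41 on the log2 scale (SE 0.04, adjusted p = 1.19e-08). The de novo methyltransferase genes DNMT3B and DNMT3A rose by 0.42 and 0.15 (adjusted p = 8.32e-08 and 0.00762). CTCF, DNMT1, DNMT3A and DNMT3B were singled out after their values were seen.

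Paralogues and partners of the 10 genes were mostly rare or near the control level. Of 17, 8 were tested, of which 3 fell, 1 rose and 4 did not pass, with a median log2 fold change of -0.01, where 26.8% of all tested genes fell and 26.8% rose. With the replicate block 7 passed. Without control library 1, 2 passed. NAP1L5, an imprinted relative of NAP1L4, fell from 23, 26 and 30 reads to 7, 6 and 7 (log2 fold change -1.80, SE 0.34, adjusted p = 1.81e-04). CDKN1A and CDKN1B, the other members of the inhibitor family of CDKN1C, had log2 fold changes of 0.09 (adjusted p = 0.219) and 0.08 (adjusted p = 0.0916, and 0.0283 with the replicate block).

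Of 11 genes listed as published targets of miR-675, 10 were tested, of which 4 fell, 2 rose and 4 did not pass, with a median log2 fold change of 0.02 and none past 2-fold, where 26.8% of all tested genes fell and 26.8% rose. TGFBI, a secreted matrix protein, fell from 7239 ± 56.7 to 4185 ± 53.1 normalized reads (log2 fold change -0.79, SE 0.03, adjusted p = 2.72e-13). RUNX1, a transcription factor, rose from 502 ± 30.1 to 781 ± 36.6 (log2 fold change 0.64, SE 0.07, adjusted p = 1.13e-07). RB1, the retinoblastoma gene, had a log2 fold change of 0.13 (adjusted p = 0.0487) and lost its call in 9 of 14 alternatives.

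**Figure D5:**
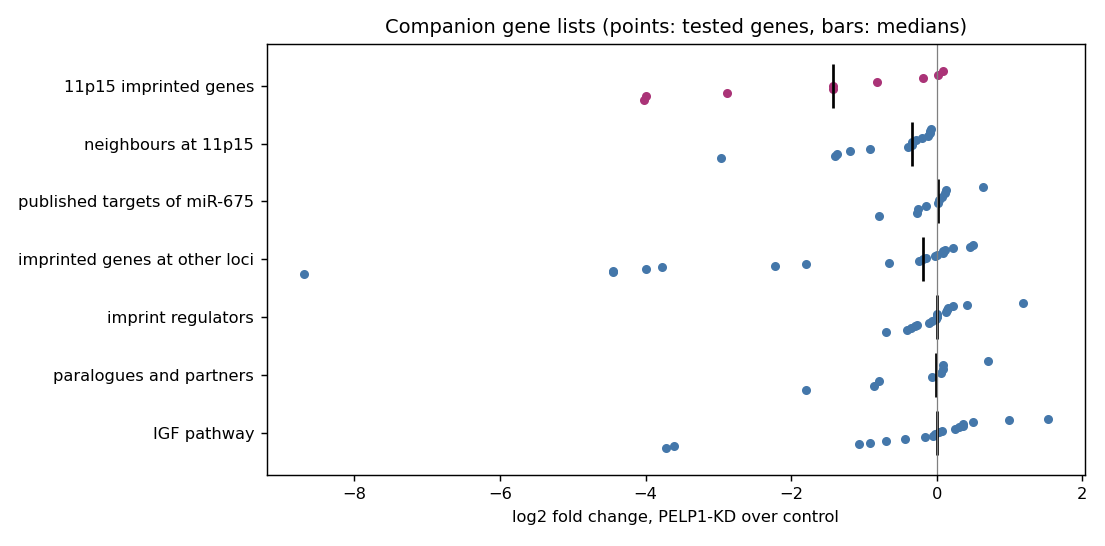
The log2 fold change, PELP1-KD over control, of each tested gene (points) in 6 companion lists and of the 9 tested 11p15 genes, with a black bar at each median. The medians are -1.42 for the 11p15 genes, -0.34 for their neighbours, -0.19 for imprinted genes at other loci and between -0.01 and 0.02 for the other lists.

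Genes with the most similar pattern over the 6 libraries were sought for IGF2, H19 and NAP1L4, the most abundant of the set apart from MIR675. The measure was the Euclidean distance between centred log2 normalized reads. The search covered the 11761 tested genes outside the set that had a mean of at least 100 normalized reads. Besides INS-IGF2, the gene nearest to IGF2 was SLC6A19, an amino acid transporter gene (distance 0.0969), with 281 ± 10.1 normalized reads in control and 106 ± 3.12 in PELP1-KD. Nearest to H19 were COL9A3, a collagen gene (distance 0.126), and RELN, which encodes the secreted protein reelin (distance 0.275). COL9A3 stood at 1324 ± 20.04 normalized reads in control and 84.1 ± 4.35 in PELP1-KD, and RELN at 5198 ± 76.2 and 347 ± 15.1. Nearest to NAP1L4 were ANXA6, a calcium-binding membrane protein gene (distance 0.0244), and NASP, a histone chaperone gene (distance 0.0273). With 6 libraries in 2 groups, the distance mainly measures the size of the group difference.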

How the data were processed

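RNA was sequenced from 3 control and 3 PELP1-KD samples of Hep3B cells, grouped by their labels. The authors deposited estimated counts per gene, 1 table per library, without normalization. Per the file headers, featureCounts assigned read pairs to exons of hg19 genes in a strand-specific way (mapping quality of at least 2), and multi-mapping or multi-gene reads were split into fractions. The sources differ on the rest. The methods name TopHat2 and HTSeq, while the submitters' processing notes list HISAT2 and featureCounts. The labels give rRNA depletion with paired reads, and the design text mRNA selection with single reads.

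Estimated counts, of which 10.6% to 13.3% per library were not whole, were rounded. The 14537 of 23228 genes that passed filterByExpr were fitted with edgeR 4.0.16 (quasi-likelihood with robust estimation, TMM, R 4.3.3), with Benjamini-Hochberg adjustment over all of them. Calls required an adjusted p under 0.05. Standard errors were derived from each gene's F statistic and fold change, with a median of 0.063. Normalized reads are deposited counts brought to a common effective library size (TMM), and RPKM uses the exon length in the table. Exon overlaps were computed from the exon coordinates in the tables. The script was tested on simulated data.

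The 10 genes and all lists were chosen with earlier results of these data known. All 10 are named. Of each list, up to 3 called genes per direction past 2-fold with the smallest p were named, or, where none passed, the 2 with the smallest p, besides genes that share exon bases with the 10, the nearest in pattern and PELP1. Receptors, remaining neighbours and other listed genes with values were added after seeing them.

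Libraries with the same replicate number deviated together from their group means (correlations 0.336, 0.248 and 0.666 over 6366 genes). By a preset rule of above 0.1 this pairs them, although control 2 and PELP1-KD 1 correlated at 0.417 and the labels give no shared day or batch. The main fit had no block, so its adjusted p values treat the libraries as unpaired. The alternatives were DESeq2 1.42.0, other size factors, other filters, no rounding, the replicate block, each library left out, and rows that share exon bases summed. Sequences were taken from RefSeq. No entry in the sequence tables was used for the promoters and proteins of these genes.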

Additional observations from a re-analysis of the deposited data

How the results depend on the processing

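The log2 fold changes of the 9 tested 11p15 genes moved by less than the spread between replicates under each of the 14 or 15 alternatives run. With 3 libraries per group, leaving 1 out can hardly move a group mean by more than that spread. For those settings this outcome was largely fixed in advance, and only the size of the shifts is informative. The log2 fold changes ranged from -4.08 to -3.98 for H19, -4.05 to -3.97 for MIR675, -1.45 to -1.41 for IGF2, -1.56 to -1.25 for IGF2AS, -2.96 to -2.85 for CDKN1C, 0.02 to 0.13 for KCNQ1OT1, -0.85 to -0.76 for PHLDA2 and -0.20 to -0.18 for NAP1L4. SLC22A18 ranged from -0.00 to 0.07, with 1 change of sign when a library was left out. Other scalings moved the median of all genes by at most 0.017. Among paralogues and partners, the 4 calls became 2 with at least 10 reads required in every library, where fewer genes are tested, and 7 with the replicate block, where the cause was not tested. They ranged from 2 to 4 when each library was left out. The counts of called genes in the other 5 lists, and over all genes, stayed within 1.5 times under the 14 alternatives, replicate block included. Of 54 called genes in the lists, 47 kept their call under each alternative in which they were tested. The call was lost in at least 1 alternative for genes that include KCNE1L, DNMT3A, ARID4B, RB1, CTSD and SYT8. Of the genes not called, CTCF passed in 6 of 14 alternatives. Genes under about 50 reads, KCNQ1 among the 10, are limited by depth.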
